A study of Mus musculus with 8 samples.

Results

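The transcripts of 8 adhesive and matrix proteins of the platelet alpha granule were followed: Vwf, Thbs1, Sparc, Mmrn1, Fn1, Selp, Clu and Ecm1. They were chosen by gene symbol, and all 8 were found among the 55487 genes of the deposited tables. All 8 also had enough counts to be tested, out of 7362 genes that did. Each was measured in platelets from 8 male mice aged 13 weeks, of which 4 were labelled WT and 4 Dnmt3a+/-, that is, heterozygous for the gene of a DNA methyltransferase, all littermates. The labels do not say what kind of mutant allele it is. Each mouse gave 1 library of polyadenylated RNA. Platelets had been spun out of blood taken from the heart, and beads against Ter119 (red cells) and CD45 (leukocytes) were used to deplete other blood cells.

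Platelets carry RNA and protein passed on by the megakaryocyte. Their alpha granules store proteins that are released, or brought to the surface, when the platelet is activated. Von Willebrand factor and P-selectin are made by megakaryocytes and by endothelial cells, which keep them in storage bodies of their own. Fibronectin is different: the liver secretes the plasma form in bulk, and platelets take protein of that kind up from plasma. SPARC and thrombospondin-1 are matricellular proteins, made by megakaryocytes and also by fibroblasts and endothelium. A platelet preparation can therefore hold such a protein with little of its transcript, and a transcript count can include RNA of other cells.

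Total counts ran from 15185218 to 22160394 per library. The 14 platelet and megakaryocyte marker genes were detected in every library, and their sum ranged from 45971 to 51466 CPM for WT and from 44099 to 53674 CPM for the heterozygous label, where CPM is counts per 1000000 after TMM scaling. Some libraries stood apart. WT replicate 1 held 325253 counts of 8 erythroid markers against 30784 to 75909 elsewhere, and WT replicate 3 had 24.8% of its counts on mitochondrial genes against 16.7% to 19.0%. Dnmt3a itself had counts of 332, 408, 315 and 279 in WT replicates 1 to 4, while the libraries labelled Dnmt3a+/- had 151, 186, 399 and 450. Replicates 3 and 4 under the heterozygous label thus held the targeted transcript at or above the WT level (24.2 and 19.5 CPM, against 18.2 to 22.1 in WT), so every direction given here is between labels.

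The 8 transcripts covered more than 3 orders of magnitude. Clu, clusterin, a secreted chaperone, was at 5036 ± 1033 TPM (transcripts per 1000000, which corrects for transcript length; SD over 8 libraries) and ranked between 25 and 36 among all genes of a library. Ecm1, extracellular matrix protein 1, followed at 841 ± 117 TPM and Vwf, von Willebrand factor, at 504 ± 96.7. Thbs1, thrombospondin-1, and Mmrn1, multimerin-1, lay side by side at 403 ± 76.9 and 387 ± 33.6 TPM. Selp, P-selectin, was at 32.7 ± 6.98 TPM, about an order of magnitude below them. Sparc and Fn1, fibronectin, were the rarest, at 2.45 ± 1.29 and 1.31 ± 1.11 TPM. By rank Sparc lay between places 3075 and 5056 and Fn1 between 3541 and 8680.

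**Figure D1:**
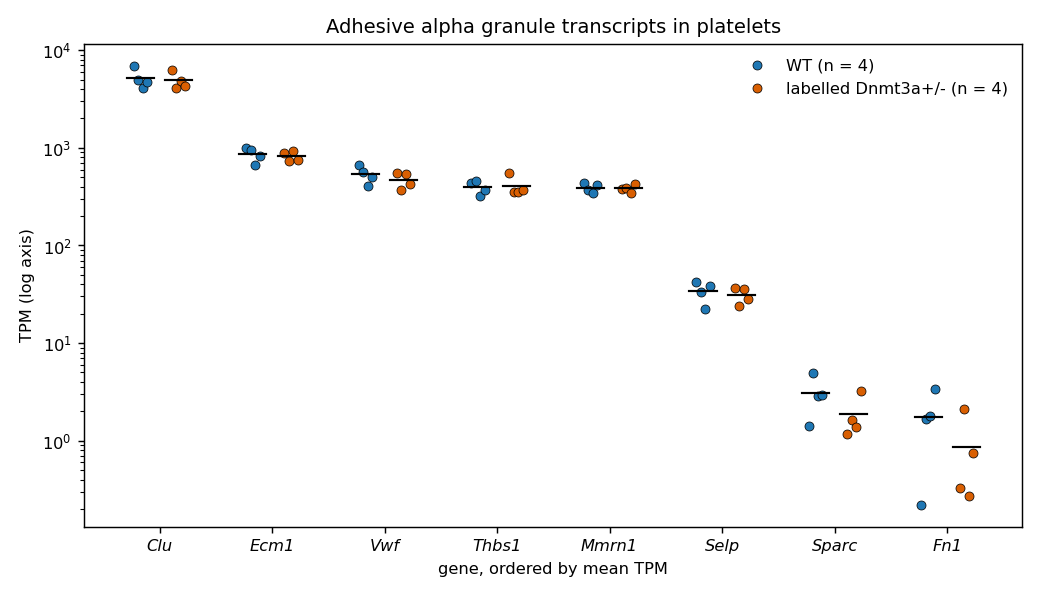
TPM (log axis) of the 8 genes in every library, ordered by mean level, with WT in blue and the libraries labelled Dnmt3a+/- in orange (n = 4 each); points are libraries and short lines are group means. Clu lies between 4062 and 6908 TPM and Fn1 between 0.22 and 3.35, and the points of both groups overlap for every gene.

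Neighbours in this order were compared within libraries on log2(TPM + 1) with an exact two-sided sign-flip permutation test, adjusted over the 7 neighbouring pairs; the smallest p this design allows is 0.00781. The step from Clu to Ecm1 was 2.57 ± 0.16 on that log2 scale (SD) and that from Ecm1 to Vwf 0.75 ± 0.11, each in 8 of 8 libraries (exact permutation adjusted p = 0.0137). Vwf exceeded Thbs1 by 0.32 ± 0.23 in 7 of 8 libraries (exact permutation adjusted p = 0.0219). Thbs1 and Mmrn1 could not be ordered: the difference was 0.04 ± 0.26, positive in 4 of 8 libraries and spanning -0.20 to 0.54 (exact permutation adjusted p = 0.680). Mmrn1 exceeded Selp by 3.55 ± 0.29 and Selp exceeded Sparc by 3.34 ± 0.67, again in 8 of 8 libraries (exact permutation adjusted p = 0.0137). Sparc lay above Fn1 in 6 of 8 libraries, by 0.64 ± 0.57 (exact permutation adjusted p = 0.0365). This last step rests on low TPM values, 1.18 to 4.91 for Sparc and 0.22 to 3.35 for Fn1, and on the length correction. In CPM, without that correction, the mean was higher for Fn1 (6.69) than for Sparc (4.23).

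As a share of all counts, which does not correct for length, the 8 genes together made up 1.24% to 1.95% of a library. Their mean share was 1.55% ± 0.28 for WT and 1.45% ± 0.25 for the heterozygous label (SD, n = 4 each). Clu alone supplied 42.1% to 47.8% of the members' counts.

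Vwf (ENSMUSG00000001930, chr6:125546774-125686679, plus strand, GRCm38) encodes the multimeric protein that tethers platelets to exposed collagen through glycoprotein Ib. WT replicates 1 to 4 held 4877, 3707, 3288 and 3420 CPM of it, and replicates 1 to 4 labelled Dnmt3a+/- held 4165, 2565, 3873 and 2808 CPM. WT replicate 1 was highest and the heterozygous-labelled replicates 2 and 4 were lowest. The heterozygous-labelled replicates 1 and 3 lay above WT replicates 2 to 4, so the direction was not shared by all libraries. The log2 fold change (labelled Dnmt3a+/- minus WT) was -0.19 (SE 0.18; edgeR adjusted p = 0.998), smaller than the spread between replicates. In bulk RNA such as this, fewer cells of a type and less RNA per cell cannot be told apart.

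Mmrn1 (ENSMUSG00000054641, chr6:60924976-60989378, plus strand) encodes a large multimer that binds factor V inside the granule. It was the steadiest of the 8, with a coefficient of variation of 9.16% over all libraries. WT replicates 1 to 4 held 1731, 1305, 1551 and 1581 CPM, and those labelled Dnmt3a+/- held 1530, 1472, 1333 and 1564 CPM. The lowest and the highest value were both WT. Its log2 fold change was -0.06 (SE 0.11; edgeR adjusted p = 0.998).

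Selp (ENSMUSG00000026580, chr1:164115264-164150026, plus strand) encodes the granule membrane receptor that reaches the platelet surface on activation and binds leukocytes through PSGL-1. Its WT values were 122, 79.7, 77.1 and 95.1 CPM, and the heterozygous-labelled ones 112, 70.5, 94.4 and 77.6 CPM. Replicate 1 was the highest under either label, and the groups overlapped almost fully (log2 fold change -0.07, SE 0.18; edgeR adjusted p = 0.998). A pair of genes lies on the opposite strand within its span: Gm16548 had 60 to 105 counts and Gm16587 had 6 to 16 counts per library, against 1139 to 1912 for Selp. The library kit keeps strand, but the strand setting of the counting was not stated in the sources, so how reads were shared among them was not tested.

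Thbs1 (ENSMUSG00000040152, chr2:118111876-118127133, plus strand) encodes a trimeric glycoprotein that binds CD36, CD47 and integrins. WT replicates 1 to 4 were at 2310, 2179, 1909 and 1880 CPM. Under the heterozygous label replicate 1 stood alone at 2954 CPM, while replicates 2 to 4 lay at 1796, 1808 and 1814 CPM, below all WT values. The log2 fold change of 0.02 (SE 0.17; edgeR adjusted p = 0.998) turned to -0.19 when that 1 library was left out, with an edgeR adjusted p of 0.720, and its adjusted p ran from 0.720 to 1.00 over all 16 alternatives. Thbs1 was the only gene of the 8 with a positive estimate.

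Clu (ENSMUSG00000022037, chr14:65968483-65981547, plus strand) was at 9496, 6090, 6238 and 6240 CPM for WT replicates 1 to 4 and at 8613, 5430, 6542 and 5418 CPM in those labelled Dnmt3a+/-. Replicate 1 was again the highest under either label. Ecm1 (ENSMUSG00000028108, chr3:95734147-95739569, minus strand), a secreted glycoprotein that binds perlecan and other matrix proteins, was at 1310, 1090, 956 and 980 CPM in WT. Its heterozygous-labelled replicates held 1157, 871, 1176 and 851 CPM, within or below the WT range. Neither difference exceeded the replicate spread, with log2 fold changes of -0.11 (SE 0.19) for Clu and -0.10 (SE 0.14) for Ecm1 (edgeR adjusted p = 0.998 for each).

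Sparc (ENSMUSG00000018593, chr11:55394500-55423183, minus strand) encodes a collagen-binding matricellular protein. It rested on few counts: 35, 159, 98 and 48 in WT replicates 1 to 4, as against 36, 45, 42 and 139 in those labelled Dnmt3a+/-, or 2.23, 8.60, 6.15 and 3.13 CPM against 2.37, 2.79, 2.55 and 6.03 CPM. WT replicates 2 and 3 and the heterozygous-labelled replicate 4 stood above the other libraries. The exact Poisson 95% interval of the lowest count, 35, was 24.4 to 48.7 and that of the highest, 159, was 135.2 to 185.7, which covers counting error only. The log2 fold change of -0.54 (SE 0.43; edgeR adjusted p = 0.998) was smaller than the replicate spread, and it ran from -0.98 to -0.14 as each library was left out.

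Fn1 (ENSMUSG00000026193, chr1:71585520-71653200, minus strand) encodes fibronectin, a dimer that integrins assemble into matrix. Counts of 23, 144, 215 and 254 were found in WT replicates 1 to 4, against 29, 93, 31 and 107 in those labelled Dnmt3a+/-. On the CPM scale these were 1.47, 7.79, 13.5 and 16.6 against 1.91, 5.76, 1.88 and 4.64. WT replicates 2 to 4 lay above every heterozygous-labelled library and WT replicate 1 below every one of them, so the groups overlapped through that 1 library. Its coefficient of variation over all libraries, 84.4%, was the largest of the 8. The log2 fold change was -1.46 (SE 0.59), the largest in size among the 8, at an unadjusted edgeR p of 0.0319 and an edgeR adjusted p of 0.972.

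**Figure D2:**
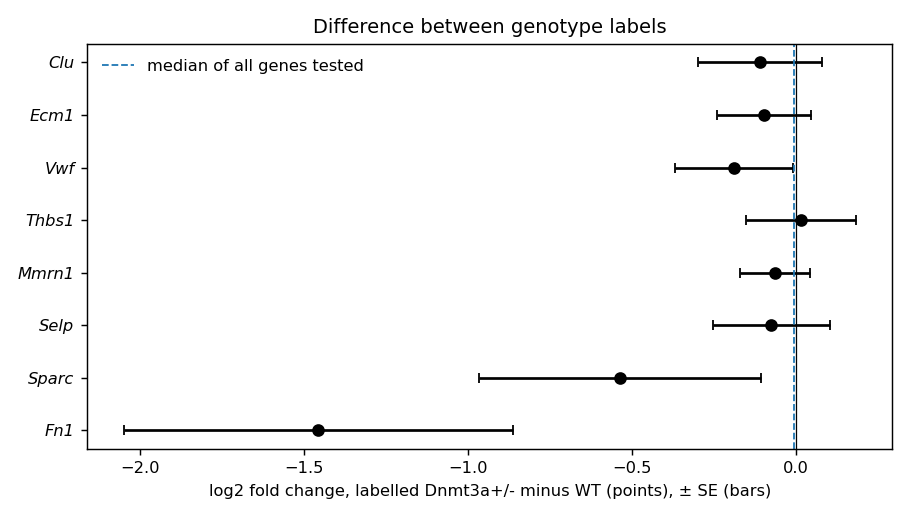
Log2 fold change of each gene between the libraries labelled Dnmt3a+/- and WT (points, edgeR) with its standard error (bars); the dashed line is the median of all genes tested. The 6 abundant genes lie between -0.19 and 0.02, Sparc at -0.54 and Fn1 at -1.46.

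Between the labels, then, 0 of the 8 genes passed an edgeR adjusted p under 0.05, beside a background of 0% (0 of the 7362 genes tested, with 362 at an unadjusted p under 0.05). DESeq2 called 0 of the 8 as well, where it called 9 genes, all lower (0.122% of those it tested). At an unadjusted p under 0.05, 1 of the 8, Fn1, was lower, beside 3.19% of all genes tested. The groups failed to overlap for 0 of the 8, beside 2.54% of all genes. The estimates were negative for 7 of the 8 and their median was -0.10, beside 51.0% negative and a median of -0.0050 over all genes tested. That median was 0.0010 without WT replicate 1, where Selp, Clu and Ecm1 had positive estimates of 0.08, 0.07 and 0.01.

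Fn1 crossed the threshold in 2 of the 16 alternative fits. With no filter on low counts its log2 fold change was -1.44 (edgeR adjusted p = 0.0231), where 1.33% of 18462 genes were called lower. Without WT replicate 1 it was -1.81 (edgeR adjusted p = 0.0382), where 1.74% of 7718 genes were called lower. Over all 16 alternatives the adjusted p ran from 0.0231 to 1.00. In TPM the difference was smaller, at -0.53 on log2(TPM + 1) and -0.92 on log2(TPM + 0.1) (limma adjusted p = 0.999 and 1.00).

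The Fn1 values in TPM also depended on the transcript length behind each value. The fits on TPM differed in method as well, with a pseudocount of 1 or 0.1 added to values of 0.22 to 3.35 TPM. What made the Fn1 difference smaller in TPM was not tested. Dividing count by TPM, and scaling by genes with a single annotated transcript, gives the length that the authors' quantification assigned to a gene in a library. For Fn1 this length ran from 3255 bases in the heterozygous-labelled replicate 2 to 7893 bases in replicate 3 of the same label, a ratio of 2.42, and 3.75% of 4954 genes had a larger ratio. Annotated Fn1 transcripts run from 426 to 8315 bases. As a result the heterozygous-labelled replicate 2, with 93 counts, stood at 2.09 TPM, above WT replicate 3 with 215 counts and 1.80 TPM.

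Sparc and Selp also varied in assigned length, and the other 5 genes varied less than the median gene. Sparc ran from 1338 bases in WT replicate 4 to 2301 bases, and Selp from 2927 to 3440 bases, close to its only coding transcript and longest form of 3438 bases at the upper end. Vwf ran from 7802 to 8180 bases. Mmrn1 stayed between 4432 and 4443 bases, Thbs1 between 5840 and 5852 bases around its 5848-base coding transcript, and Clu between 1610 and 1636 bases. The median ratio of the longest to the shortest assigned length was 1.14 over the genes compared. The ranges of both labels overlapped for each of the 8, and the mean Fn1 lengths were 6538 ± 916 bases in WT and 6222 ± 2081 bases in the other group (SD, n = 4 each).

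**Figure D3:**
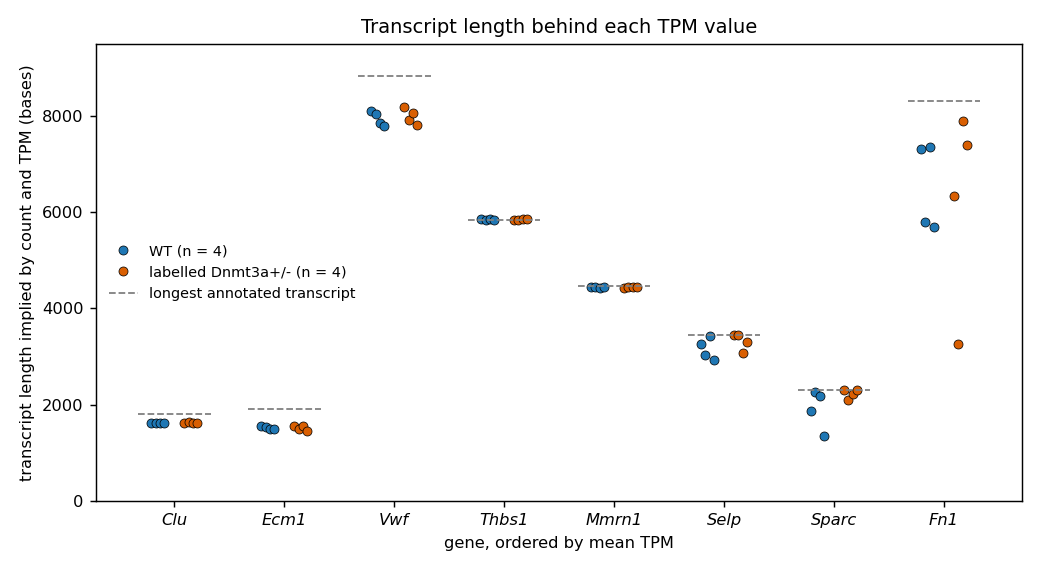
Transcript length in bases implied by count and TPM for each gene and library, with WT in blue and the libraries labelled Dnmt3a+/- in orange (n = 4 each); dashed lines mark the longest annotated transcript. Thbs1, Mmrn1 and Clu form tight rows, whereas Fn1 spreads from 3255 to 7893 bases.

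Within the set, Vwf, Selp, Clu and Ecm1 tended to move together across the 8 libraries. In WT replicate 1 they stood at 1.36, 1.34, 1.41 and 1.25 times their own 8-library mean CPM, and in the heterozygous-labelled replicate 1 at 1.16, 1.23, 1.27 and 1.10 times. In replicates 2 and 4 under that label all 4 genes lay between 0.71 and 0.85 times the mean. WT replicate 2 split them, with Vwf and Ecm1 at 1.03 and 1.04 times and Clu and Selp at 0.90 and 0.88 times. Over the 8 libraries all 6 pairs among these 4 genes passed, out of 28 pairs tested on log2 CPM with Pearson's r, an exact permutation p and Benjamini-Hochberg adjustment over the 28. No other pair passed. The share of pairs that would pass among all genes was not computed, and genes outside the set reached r = 0.99 with each of these 4. Vwf and Ecm1 were the closest pair (r = 0.97, exact permutation p = 0.000198, adjusted 0.00556; Spearman's rho = 0.95, exact permutation p = 0.00114, adjusted 0.0319), with r = 0.97 after the 2 libraries farthest from the Vwf median were left out.

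The other 5 passing pairs were looser. Selp and Clu gave r = 0.94 (exact permutation p = 0.000769, adjusted 0.0108; rho = 0.86, adjusted 0.0600), and 0.76 without the 2 farthest libraries. Vwf with Clu gave r = 0.91 (exact permutation p = 0.00176, adjusted 0.0157; rho = 0.90, adjusted 0.0319), and 0.83 without the 2 farthest. Vwf with Selp gave r = 0.89 (exact permutation p = 0.00260, adjusted 0.0157; rho = 0.90, adjusted 0.0319), and 0.74 without them. In each of these pairs both genes were highest in WT replicate 1. Clu with Ecm1 gave r = 0.87 (exact permutation p = 0.00280, adjusted 0.0157; rho = 0.90, adjusted 0.0319), and 0.86 without the 2 farthest. Selp with Ecm1 gave r = 0.84 (exact permutation p = 0.0102, adjusted 0.0477; rho = 0.81, adjusted 0.102), and 0.66 without them.

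By rank, 4 of the 28 pairs passed in place of 6. Without WT replicate 1 the count fell to 0 of 28, with Vwf and Ecm1 still at r = 0.95 (its exact permutation adjusted p equalled the threshold of 0.05). It was 2 without WT replicate 3 and 3 without the heterozygous-labelled replicate 2. The platelet marker list was itself highest in the same libraries, 51466 CPM in WT replicate 1 and 53674 CPM in the heterozygous-labelled replicate 1, and WT replicate 1 was the one rich in erythroid transcripts. Their part in the joint movement was not tested. With 4 libraries per label, no correlation within a label was computed.

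**Figure D4:**
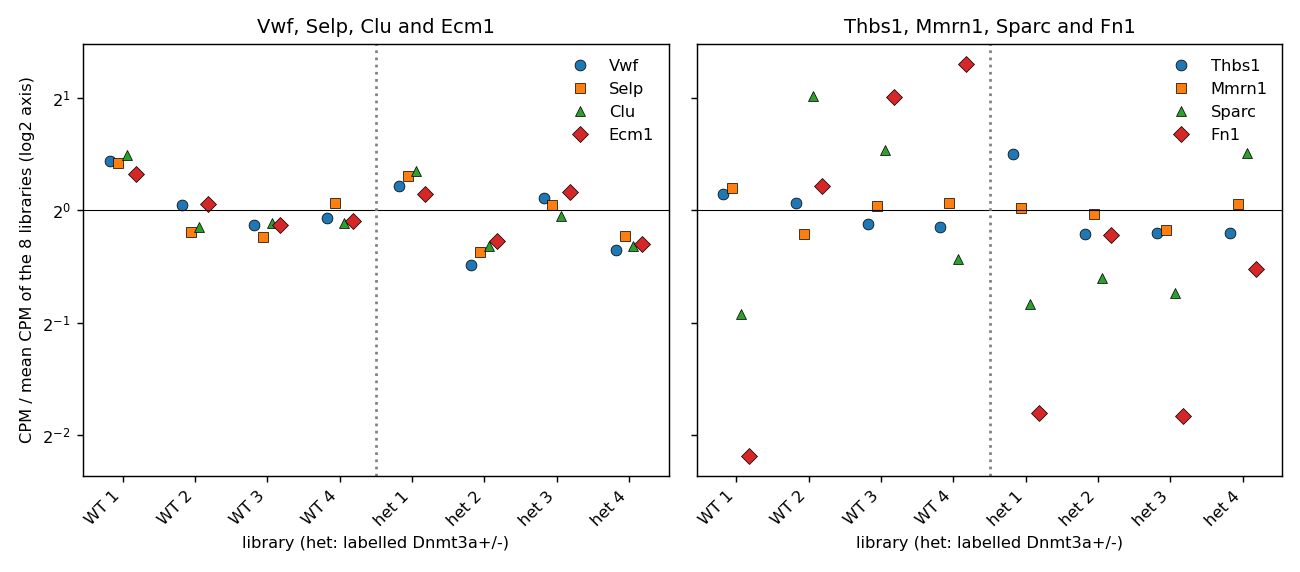
CPM of each gene divided by its mean over the 8 libraries (log2 axis) for WT replicates 1 to 4 and replicates 1 to 4 labelled Dnmt3a+/- (het); points are single libraries. Vwf, Selp, Clu and Ecm1 (left) keep together between 0.71 and 1.41 times their mean, whereas Fn1 (right) spans 0.22 to 2.48 times.

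Thbs1 and Mmrn1 stood outside that group of 4. Thbs1 correlated with Clu at r = 0.78 (exact permutation p = 0.0306, adjusted 0.122; rho = 0.60, adjusted 0.232), which became 0.27 without WT replicate 1 and the heterozygous-labelled replicate 1, so the relation rested on those libraries. The highest r of Mmrn1 with another member was 0.45, with Clu. Sparc and Fn1 ran against Vwf, Selp, Clu and Ecm1, with r between -0.37 and -0.66 for the 8 pairs concerned. None of these pairs passed (adjusted p from 0.207 to 0.449, exact permutation).

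The start regions of Ecm1, Selp and Mmrn1 are shown because the former pair belongs to the group that moved together and Mmrn1, also abundant, does not. Each is the RefSeq window of 250 bases before to 50 bases after the gene's start on GRCm38.p6, written 5′ to 3′ on the gene's strand: chr3:95739520-95739819 (minus) for Ecm1, chr1:164115014-164115313 (plus) for Selp and chr6:60944067-60944366 (plus) for Mmrn1. Capitals mark words for 3 kinds of element searched on both strands: GATA sites (either AGATAA or AGATAG, or else TGATAA or TGATAG), ETS sites (AGGAAG or else CGGAAG) and a TATA box (TATAAA). Factors of the GATA and ETS families direct megakaryocyte genes.
Ecm1: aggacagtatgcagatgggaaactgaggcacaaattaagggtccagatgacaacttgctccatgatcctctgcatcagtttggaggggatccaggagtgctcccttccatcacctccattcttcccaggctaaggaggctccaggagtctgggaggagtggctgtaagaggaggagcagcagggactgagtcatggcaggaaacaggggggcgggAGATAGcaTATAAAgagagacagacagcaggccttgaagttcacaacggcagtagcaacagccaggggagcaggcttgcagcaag
Selp: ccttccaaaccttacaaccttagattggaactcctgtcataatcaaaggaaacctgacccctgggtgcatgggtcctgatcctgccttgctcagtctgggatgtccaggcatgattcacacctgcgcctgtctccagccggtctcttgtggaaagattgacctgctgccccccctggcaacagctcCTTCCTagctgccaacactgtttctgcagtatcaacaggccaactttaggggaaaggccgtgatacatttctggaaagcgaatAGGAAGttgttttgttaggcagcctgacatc
Mmrn1: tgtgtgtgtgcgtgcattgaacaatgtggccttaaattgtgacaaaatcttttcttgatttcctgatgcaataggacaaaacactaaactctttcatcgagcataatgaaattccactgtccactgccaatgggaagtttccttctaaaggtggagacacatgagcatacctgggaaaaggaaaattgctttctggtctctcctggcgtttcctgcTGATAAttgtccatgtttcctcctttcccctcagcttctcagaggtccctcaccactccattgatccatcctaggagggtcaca

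Ecm1 held AGATAG at base -35 and TATAAA at base -27 from its start. Mmrn1 held TGATAA at base -34 from the RefSeq start. The Mmrn1 window lies inside the GENCODE span of the gene, which begins at base 60924976 of chr6, and not at its start. Selp held AGGAAG on the minus strand at base -64 (read as its complement above) and on the plus strand at base 20. The window of Sparc, the only other member with a RefSeq window here, held none of these words. It also lies inside the GENCODE span of its gene. Among 32817 RefSeq windows of the same length 29.8% held a GATA word, 46.5% an ETS word and 13.6% TATAAA, so each is a common match and describes letters only. Of CG dinucleotides, the target of DNA methyltransferases, there were 2 in Ecm1, 3 in Mmrn1 and 4 in Selp, against a median of 7. As many or fewer were found in 23.3%, 31.4% and 38.1% of all windows, so these are ordinary values.

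Which of the 8 transcripts could also come from other tissues was examined with marker lists. The hepatocyte list of 18 genes varied most: its sum was 21.2, 371, 1813 and 1319 CPM in WT replicates 1 to 4, against 115, 5.51, 149 and 4.95 CPM in those labelled Dnmt3a+/-. Alb, serum albumin, had 110, 3890, 15123 and 11691 counts in WT and 935, 4, 1474 and 6 in the others. The list members at 0 numbered 11 and 9 in the heterozygous-labelled replicates 2 and 4, 3 in WT replicate 1 and 0 elsewhere. WT replicates 2 to 4 thus carried the most hepatocyte RNA, and in CPM they also carried the most Fn1, though not in TPM.

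Fn1 did not follow the hepatocyte list everywhere. In the heterozygous-labelled replicates 2 and 4, where Alb was at 4 and 6 counts, Fn1 still had 93 and 107 counts, more than in replicates 1 and 3 of that label (29 and 31 counts), where Alb was at 935 and 1474 counts. Over all 8 libraries Fn1 correlated with the hepatocyte sum at r = 0.52 (exact permutation p = 0.189, adjusted 0.954; rho = 0.60, exact permutation p = 0.132, adjusted 0.931). Without those 2 libraries, the farthest from the median, r was 0.93. The same 2 libraries were the highest for the monocyte and macrophage list of 11 genes, at 17.1 and 15.2 CPM against 2.91 to 11.4 CPM elsewhere. That list's Csf1r, the receptor for colony stimulating factor 1, had 58 and 61 counts there against 11 to 51. In CPM it was at 3.59 and 2.65 there, and WT replicate 2, at 2.76 CPM, lay between them. With the monocyte and macrophage sum, a list added after the data were seen, Fn1 had r = 0.46 (exact permutation p = 0.240, adjusted 0.320). By rank, rho was 0.48 (exact permutation p = 0.243, adjusted 0.324). Without the heterozygous-labelled replicates 2 and 4, r with that sum was 0.65. The part of liver or monocyte RNA in the Fn1 level was not tested.

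**Figure D5:**
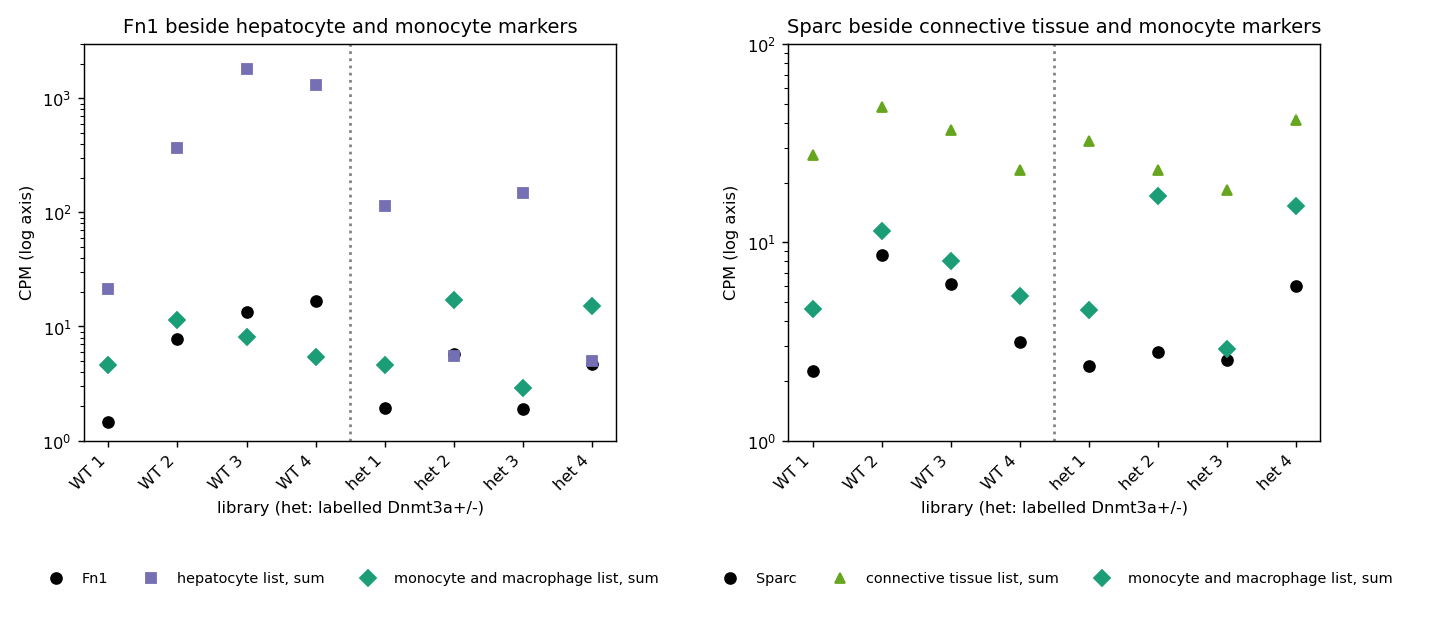
CPM (log axis) per library of Fn1 beside the summed hepatocyte and monocyte lists (left), and of Sparc beside the summed connective tissue and monocyte lists (right), in WT replicates 1 to 4 and replicates 1 to 4 labelled Dnmt3a+/- (het). Fn1 exceeds 10 CPM where the hepatocyte sum is 1813 and 1319 CPM, and is at 5.76 and 4.64 CPM where that sum is 5.51 and 4.95 CPM.

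Sparc was set beside the connective tissue list (14 genes, collagens and other fibroblast products), which summed to 27.6, 47.8, 36.6 and 23.2 CPM in WT against 32.2, 23.0, 18.3 and 41.5 CPM under the heterozygous label. The 3 libraries with the most Sparc were also the 3 highest here. The correlation was r = 0.80 (exact permutation p = 0.0225, adjusted 0.540 over 24 relations; rho = 0.62, exact permutation p = 0.115, adjusted 0.931) and 0.71 without the 2 farthest libraries. With the monocyte and macrophage sum, a list added after the data were seen, Sparc had r = 0.59 (exact permutation p = 0.125, adjusted 0.200 over 8 relations; rho = 0.60, exact permutation p = 0.132, adjusted 0.212), and 0.91 without the 2 farthest libraries. Col1a2, a collagen I chain, had 7 to 106 counts per library against 35 to 159 for Sparc.

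Vwf and Selp are also endothelial products. The endothelial list of 15 genes summed to 777 to 1375 counts per library, with Cdh5, VE-cadherin, at 20 to 94 and Kdr, a VEGF receptor, at 100 to 235. Vwf had 41426 to 76570 counts in the same libraries, and Selp 1139 to 1912 counts, near the endothelial sum. The hepatocyte list came to 89 to 28898 counts per library, more than Ecm1 (15240 and 15026 counts) in WT replicates 3 and 4, and its part in the abundant transcripts was not tested. No member correlated with the endothelial sum beyond r = 0.47, and 0 of the 24 relations of the 8 genes with the hepatocyte, endothelial and connective tissue sums passed, by Pearson's r or by rank. Without the heterozygous-labelled replicates 2 and 4, Vwf and Ecm1 had r of -0.99 and -0.99 with the hepatocyte sum over the 6 libraries left, against 0.28 and 0.20 over all 8, so their relation to it changed sign with 2 libraries. Selp, Clu and Thbs1 changed sign likewise, from 0.09, 0.07 and 0.08 to -0.81, -0.85 and -0.52. Sparc, Mmrn1 and Fn1 kept their sign.

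The monocyte and macrophage sum, added after the data were seen, passed for 0 of 8 genes by Pearson's r and for 3 of 8 by rank. Vwf and Ecm1 each had rho = -0.83 (exact permutation p = 0.0154, adjusted 0.0410) and Clu had rho = -0.88 (exact permutation p = 0.00724, adjusted 0.0410), all lower where the markers were higher. Pearson's r for them was -0.78, -0.79 and -0.68 (exact permutation adjusted p = 0.0727, 0.0727 and 0.129), and -0.42, -0.50 and -0.42 without the heterozygous-labelled replicates 2 and 4, so the relation rested largely on those libraries. The list itself came to 48 to 351 counts per library.

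Among receptors and other partners of the 8 proteins, 22 of 29 listed genes were tested and 0 passed. Estimates were positive for 5 and negative for 17 (77.3%), with a median of -0.12. Over all genes tested 51.0% were negative and the median was -0.0050. Whether the list differs from that background was not tested. The von Willebrand factor receptor chain Gp1ba stood at 534 ± 73.8 CPM under the WT label and 573 ± 54.4 under the heterozygous label (SD, n = 4 each), and the fibrinogen receptor chain Itgb3, which also binds fibronectin, at 3160 ± 477 and 3033 ± 426. Cd47, a thrombospondin receptor, was at 376 ± 23.2 and 433 ± 19.1 CPM, a log2 fold change of 0.20 (SE 0.08; edgeR adjusted p = 0.976). Cd36, another, was rare at 7.07 ± 1.90 and 4.77 ± 1.72 CPM. Lrp8, a receptor of the LDL receptor family, had a log2 fold change of 0.61 (SE 0.22; edgeR adjusted p = 0.774), which was -0.14 and -0.27 in the fits on TPM with a pseudocount of 1 and 0.1.

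Of the partners with lower estimates, those with an unadjusted p under 0.05 were Stab2 and Pdia4. Stab2, a scavenger receptor of sinusoidal endothelium, had 4.08 ± 1.06 CPM under the WT label and 1.99 ± 0.82 under the other (log2 fold change -1.05, SE 0.31; edgeR adjusted p = 0.647). In TPM the same gene was at 3.21 ± 1.31 and 3.11 ± 1.63 (SD, n = 4 each), a log2 difference of -0.06 and -0.08 with a pseudocount of 1 and 0.1. Pdia4, a disulfide isomerase of the endoplasmic reticulum, had -0.50 (SE 0.21; edgeR adjusted p = 0.972). Several partners had very few counts. Adamts13, the protease that trims von Willebrand factor, had 0 to 1 counts per library and Selplg, the P-selectin ligand of leukocytes, 2 to 14. F8, the clotting factor that von Willebrand factor carries in plasma, had 4, 27, 47 and 19 counts in WT and 3, 3, 5 and 8 in the libraries labelled Dnmt3a+/-, below the filter. Beside Selplg, the leukocyte list of 8 genes came to 82 to 136 counts per library.

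Of 39 other alpha granule cargo genes, 26 were tested, with 0 past the threshold. Estimates were positive for 10 and negative for 16 (61.5%, beside 51.0% of all genes tested), with a median of -0.09. F5, factor V, to which multimerin-1 binds, stood at 5319 ± 1031 CPM under the WT label and 4943 ± 482 under the heterozygous label (SD, n = 4 each). F13a1, a transglutaminase that cross-links fibrin, was at 2014 ± 591 and 1918 ± 527 CPM, and Tgfb1 at 196 ± 27.9 and 180 ± 34.2 CPM. Ccl5 had the smallest unadjusted p among positive estimates (log2 fold change 0.66, SE 0.19; edgeR adjusted p = 0.647). The fibrinogen chains Fga, Fgb and Fgg, known as liver products, had -3.89, -3.77 and -3.84 (edgeR adjusted p from 0.706 to 0.741). With low counts left unfiltered all 3 passed (edgeR adjusted p = 0.000669, 0.000945 and 0.000799), and Fga also without WT replicate 1 (edgeR adjusted p = 0.0437). Over all alternatives their adjusted p reached 1.00. Their counts ranged from 7 to 1085 in WT and from 0 to 95 in the other group, beside the hepatocyte values above, whose part was not tested. Serping1, the C1 inhibitor, had -1.43 (SE 0.60; edgeR adjusted p = 0.979).

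Relatives of the 8 genes mostly lay below the filter on low counts. Of 18 listed, 17 matched by symbol and 5 were tested. Sele, E-selectin, had 0 to 2 counts per library, against 1139 to 1912 for Selp. Thbs2, the close relative of Thbs1, had 2 to 18 counts against 28833 to 44792. Mmrn2, the endothelial relative of Mmrn1, had 3 to 21 counts, and Sparcl1, related to Sparc, 21 to 84 counts.

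Genes whose level was most like each member over the 8 libraries were found by Pearson's r of log2 CPM among 2573 other genes (2574 for Sparc and Fn1) with a mean of at least 10 CPM. Being the highest of so many, these values are a description. Among the closest to Clu were Cd63, a tetraspanin of granule membranes, and P2rx1 (each r = 0.99), and among the closest to Ecm1 were Atp2a3 and Gsn (each 0.99). Vwf was closest to Nomo1, Ttll1 and Laptm5 (each 0.99), and Selp to Glb1, Pfn1 and Ap2m1 (0.99 to 0.98). Mmrn1 was closest to Rtn3 (0.98), Itgb1 (0.95) and Gp6, the collagen receptor (0.94). Thbs1 was closest to Tmem14c (0.96), Cdk16 and Slco3a1 (each 0.93). Sparc was closest to Vim, vimentin (0.87), and Tmem158 (0.87) and Nacc2 (0.86), and Fn1 to Vma21 (0.92), Sec23a (0.89) and Ccdc47 (0.88).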

How the data were processed

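Platelet RNA from 4 WT mice and 4 labelled Dnmt3a+/- was compared. The deposited tables hold, per gene and library, estimated counts written as whole numbers and TPM values, both made by the authors; TPM sums to 1000000 per library. The submitters' processing notes name RSEM, STAR, cutadapt and DESeq2 and the build mm10; their roles and versions, the annotation release and the strand setting of the counting are not given in the sources used here. An estimated count depends on how shared reads were divided.

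Groups and replicate numbers came from the labels, which call the samples biological replicates. All genes were fitted with edgeR 4.0.16 under R 4.3.3: estimated counts rounded to whole numbers (no value changed), TMM factors, filterByExpr (minimum count 10, minimum total 15), the quasi-likelihood F test and Benjamini-Hochberg adjustment over 7362 genes at 0.05. The standard error is the size of the log2 fold change divided by the square root of F. Alternatives were upper-quartile and RLE factors, no filter, a strict filter (1 CPM in all 8 libraries), DESeq2 1.42.0, limma 3.58.1 on log2 TPM with a pseudocount of 1 or 0.1, a replicate block, and each library left out, 16 in all. Scripts were tested on simulated data.

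Levels of different genes were compared in TPM with 256 sign arrangements, and correlations with 40320 pairings. Transcript length was taken as count over TPM, calibrated in each library on 188 to 214 genes with a single GENCODE M21 transcript, of which 97.3% to 98.0% came within 1% of the annotated length. Positions are from GENCODE M21 (GRCm38). RefSeq windows were held for Selp, Ecm1, Mmrn1 and Sparc. Named from the lists were genes at an unadjusted p under 0.05 (at most 3 per direction) and a fixed set given whatever their values; a few genes that the rules name are not reported here. The members and lists were chosen with earlier results of these data known. Of the cell lists, adipocyte markers summed to 76 to 458 counts per library.

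Counts of every pair of libraries of a group differed beyond sampling noise (chi-square per degree of freedom at least 12.6). The main fit did not pair samples by replicate number.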

Additional observations from a re-analysis of the deposited data

Results flagged for a closer look

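Among 16 sets of 4 values (8 genes under 2 labels), 3 had a library far from its group, where chance alone gives about 1 in 20. Thbs1 in the library labelled Dnmt3a+/- replicate 1 was at 2954 CPM, against 1796 to 1814 CPM in the other 3. Sparc in the library labelled Dnmt3a+/- replicate 4 was at 6.03 CPM, against 2.37 to 2.79 CPM. Clu in WT replicate 1 was at 9496 CPM, against 6090 to 6240 CPM. Each rests on 1 library per label, and none was left out of the values reported.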

How the results depend on the processing

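The number of genes past the threshold was 0, and it was 250 with no filter on low counts (246 lower), 9 with DESeq2, and 0 to 135 as each library was left out, with 135 without WT replicate 1 and 1 without the library labelled Dnmt3a+/- replicate 2. The cause was not tested. Of the 8 adhesive genes 0 passed, and 1, Fn1, with no filter and without WT replicate 1 (0 to 1 over the left-out libraries). Their median log2 fold change ran from -0.23 to 0.0010 with a library left out. Same-numbered libraries were little alike (correlations of same-numbered deviations from -0.10 to 0.11), which cannot exclude shared handling. The closest heterozygous-labelled library had the same number for WT replicates 1 and 3 and another number for WT replicates 2 and 4. A replicate block gave 0 genes and turned Thbs1 to -0.014. With libraries left out in turn Thbs1 ran from -0.19 to 0.087, Selp from -0.20 to 0.078, Clu from -0.27 to 0.069 and Ecm1 from -0.17 to 0.0062, the 4 members that changed sign. Lrp8 changed sign on TPM (-0.14 and -0.27). Vwf, Sparc, Mmrn1 and Fn1 stayed negative in all 16 alternatives. Distinct neighbours in the order of levels numbered 6, and 4 to 6 with a library left out. Passing pairs numbered 6, and 0 to 6 with a library left out. Relations with the hepatocyte, endothelial and connective tissue sums stayed at 0 in every alternative run. With the added monocyte and macrophage sum, 0 of 8 passed by Pearson's r and 3 of 8 by rank. Sparc and Fn1 rested on few counts, 23 to 254 per library. They also varied most between libraries, with coefficients of variation of 56.2% and 84.4%. All comparisons between labels are limited by the 4 mice per label.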
